A study of Mus musculus with 2 samples.

Results

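The insulin-like growth factor (IGF) system was represented by 9 genes of the 32285 in the count matrices, chosen by symbol: the ligands *Igf1* and *Igf2*, the receptors *Igf1r* and *Igf2r*, and the binding proteins *Igfbp3*, *Igfbp4*, *Igfbp5*, *Igfbp6* and *Igfbp7*. All 9 were found once in both matrices and all 9 passed the low-count filter of the comparison between cell classes. They were measured in UV-positive lung cells, which were sorted by the fluorescence of the retinoids that they store, from wild type male C57BL/6 mice aged 3 months. There was 1 condition and there were 2 single-cell libraries, made on separate occasions and called library 1 and library 2. How many mice each library held was not given in the sources used here. The tests take the library as a block and pool the spread over the cell groups of a fit. Their p-values therefore measure how far differences between cell groups vary between these 2 libraries, not the spread between mice.

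IGF1 and IGF2 are small secreted proteins related to insulin. Both act through the tyrosine kinase IGF1R, while IGF2R, which is also the cation-independent mannose 6-phosphate receptor, carries IGF2 to the lysosome for degradation. Binding proteins hold the ligands outside the cell, prolong their life or keep them from the receptor, and release them when proteases such as the pappalysins cut them. In the lung, fibroblasts and macrophages are known sources of IGF1.

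Barcodes were kept when 200 or more genes were detected in them and no more than 10% of their unique molecular identifiers (UMIs, each standing for 1 captured transcript) were mitochondrial, which left 9634 cells in library 1 and 9988 in library 2. A cell was assigned to a class when exactly 1 of 4 sets of genes reached 3 UMIs, which held for 17130 of 19622 cells (87.3%). The set *Col1a2*, *Mfap4* and *Pdgfra* marked stromal cells, which were called adventitial when they held at least 3 UMIs of the matrix proteoglycan gene *Dcn* and alveolar when they held none. The set *Cdh5*, *Pecam1* and *Egfl7* marked endothelial cells, *Epcam*, *Cdh1* and *Lamp3* epithelial cells, and *Ptprc*, *Laptm5* and *Cd52* immune cells. None of the IGF system genes took part in these assignments. Alveolar cells numbered 5805 in library 1 and 5545 in library 2, adventitial cells 1017 and 998, endothelial cells 56 and 360, epithelial cells 930 and 101, and immune cells 266 and 334. A further 1718 stromal cells with 1 or 2 *Dcn* UMIs lay between the stromal classes.

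Levels are given as CPM, for which the summed UMIs of a gene in 1 class and library were divided by all UMIs of that class and library and multiplied by 1000000. Library 1 held 48762735 UMIs in all and library 2 held 93970185, and the libraries shared 23 barcodes among kept cells. Each class was checked with 5 marker genes outside the assignment sets. In both libraries all 5 were highest where they belong for stromal, adventitial, endothelial and epithelial cells and 4 of 5 for immune cells, the exception being *Lyz2*, which was higher in epithelial cells. Of the adventitial ones, *Pi16* and *Serpinf1* passed the test against alveolar cells described below, while *Mfap5* (adjusted p = 0.0676), *Clec3b* (0.105) and *Gsn* (0.748, at 1.18-fold) did not. Endothelial values of library 1 rest on few cells, where 3 UMIs correspond to 25.1 CPM.

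The genes lie on 7 chromosomes. On GRCm38 with the GENCODE vM21 annotation, *Igfbp3* (ENSMUSG00000020427) spans chr11:7206086-7213923 on the minus strand and *Igfbp4* (ENSMUSG00000017493) chr11:99041244-99054392 on the plus strand. *Igfbp5* (ENSMUSG00000026185) spans chr1:72857932-72874884 on the minus strand, *Igfbp6* (ENSMUSG00000023046) chr15:102144362-102149511 on the plus strand and *Igfbp7* (ENSMUSG00000036256) chr5:77349240-77408041 on the minus strand. *Igf1* (ENSMUSG00000020053) spans chr10:87858265-87937042 on the plus strand and *Igf2* (ENSMUSG00000048583) chr7:142650766-142666816 on the minus strand. *Igf1r* (ENSMUSG00000005533) spans chr7:67952827-68233668 on the plus strand and *Igf2r* (ENSMUSG00000023830) chr17:12682406-12769664 on the minus strand. Antisense genes that were also counted overlap *Igf1* (*Igf1os*), *Igf2* (*Igf2os*) and *Igf2r* (*Airn*), and *Igfbp7* overlaps *Polr2b* and *Gm34648* on the other strand. Whether the counting used strand was not given in the sources used here.

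The contrast between the stromal classes turns on 4 binding protein genes, of which *Igfbp4*, *Igfbp5* and *Igfbp6* were higher and *Igfbp3* was lower in adventitial cells. For this reason the 250 bases before their RefSeq transcription starts (GRCm38.p6, written 5′ to 3′ on the strand of the gene) are shown; the RefSeq start of *Igfbp6* lies 176 bases from the nearest GENCODE start and that of *Igfbp5* 19 bases. Capitals mark TATAAA or its reverse complement TTTATA.
*Igfbp3*, chr11:7213924-7214173, minus strand: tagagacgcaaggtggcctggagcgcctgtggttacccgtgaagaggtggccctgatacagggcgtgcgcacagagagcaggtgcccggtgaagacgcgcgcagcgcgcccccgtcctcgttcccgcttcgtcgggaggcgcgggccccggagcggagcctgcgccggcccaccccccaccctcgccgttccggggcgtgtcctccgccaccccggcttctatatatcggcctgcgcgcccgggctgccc
*Igfbp4*, chr11:99040994-99041243, plus strand: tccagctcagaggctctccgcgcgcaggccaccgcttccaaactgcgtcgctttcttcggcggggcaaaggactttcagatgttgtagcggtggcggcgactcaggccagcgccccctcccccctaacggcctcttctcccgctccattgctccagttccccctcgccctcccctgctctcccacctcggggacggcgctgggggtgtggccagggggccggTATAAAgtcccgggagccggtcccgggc
*Igfbp5*, chr1:72874866-72875115, minus strand: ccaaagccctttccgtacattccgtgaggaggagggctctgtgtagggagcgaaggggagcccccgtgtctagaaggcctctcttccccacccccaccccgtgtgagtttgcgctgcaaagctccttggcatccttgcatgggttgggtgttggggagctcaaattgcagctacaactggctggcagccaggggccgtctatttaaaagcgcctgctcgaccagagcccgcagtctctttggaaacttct
*Igfbp6*, chr15:102143936-102144185, plus strand: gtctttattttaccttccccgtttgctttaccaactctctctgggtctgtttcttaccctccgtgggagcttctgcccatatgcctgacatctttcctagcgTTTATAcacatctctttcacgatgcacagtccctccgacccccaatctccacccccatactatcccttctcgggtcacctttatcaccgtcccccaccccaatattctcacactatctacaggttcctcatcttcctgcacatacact

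TATAAA began 28 bases before the start of *Igfbp4*, and its reverse complement TTTATA began 148 bases before that of *Igfbp6*. This hexamer occurred on either strand in 12.4% of 32851 promoter windows of that length. Only the exact hexamer was searched, so related stretches such as TATATAT in *Igfbp3* and TATTTAAA in *Igfbp5* are not marked. Whether any of them acts as a TATA box was not tested. Neither AGGTCA, the hexamer that retinoic acid receptors recognise in pairs, nor the GC box GGGCGG occurred on either strand of the 4 windows; 14% and 32.7% of all windows held them. AGGTCA or its complement occurred in the windows of *Igf1*, *Igf1r*, *Igf2r* and 1 of the 4 *Igf2* starts. The windows of *Igfbp3*, *Igfbp4* and *Igfbp5* held 73.2%, 69.2% and 58.8% G and C, and that of *Igfbp6* 49.6%, against a median of 52.4% over all windows.

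To ask how stromal cells of the alveolar wall and of the adventitia, the connective tissue around vessels and airways, differ in this system, adventitial cells were compared with alveolar cells on the sums of both libraries. Of the 9 genes, 7 were higher in adventitial cells, 1 was lower and 1 did not pass the test, where 8.71% of all 13326 genes tested passed in either direction. The median log2 fold change was 0.91 over the 9 genes and -0.03 over all genes. The test was edgeR's quasi-likelihood test with the library as a block, and a gene passed at a Benjamini-Hochberg adjusted p under 0.05 over all genes tested. Fold changes and adjusted p-values below are from this fit unless another is named.

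*Igfbp4*, whose product is cut by the protease PAPP-A to free IGF, stood at 101.4 and 74.9 CPM in alveolar cells of libraries 1 and 2 and at 891.7 and 491.3 CPM in adventitial cells. Both adventitial values lay above both alveolar ones, and the log2 fold change was 2.97 ± 0.25 (SE, n = 2 libraries; adjusted p = 3.65e-07). *Igfbp5*, encoding a binding protein that attaches to extracellular matrix, rose from 5.12 and 10.3 CPM to 53.7 and 78.8 CPM, a log2 fold change of 3.18 ± 0.29 (adjusted p = 8.33e-07). *Igfbp6*, whose product prefers IGF2 as its ligand, rose from 609.4 and 505.8 CPM to 2467 and 1507 CPM (log2 fold change 1.84 ± 0.23, adjusted p = 2.90e-05). These 3 genes passed the test under all 8 alternative settings that have one.

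*Igfbp3*, which encodes the main IGF carrier of blood plasma, went the other way. It stood at 514.1 and 398.5 CPM in alveolar cells and at 197.2 and 159.7 CPM in adventitial cells, so the classes did not overlap. Its log2 fold change was -1.32 ± 0.20 (adjusted p = 0.00025), and it passed in 7 of 8 alternatives; without the library block its adjusted p was 0.0675.

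*Igfbp7*, whose product binds IGF weakly and is deposited in vessel walls, rose from 2420.0 and 1981 CPM to 4259 and 3080 CPM (log2 fold change 0.77 ± 0.21, adjusted p = 0.0298). *Igf1* rose from 63.5 and 78.2 CPM to 124.8 and 136.3 CPM (log2 fold change 0.91 ± 0.23, adjusted p = 0.0181). The receptor gene *Igf2r* rose from 55.4 and 62.6 CPM to 84.1 and 99.9 CPM (log2 fold change 0.67 ± 0.18, adjusted p = 0.0224). All 3 were higher in adventitial cells within each library, but none of them passed without the block (adjusted p of 0.445, 0.434 and 0.418), *Igf1* did not pass in DESeq2 (adjusted p = 0.481), and *Igf2r* did not pass when every cell was first thinned to 2000 UMIs (adjusted p = 0.106).

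*Igf2*, the ligand best known from fetal growth, was sparse. It had 22 and 37 UMIs in alveolar cells (0.94 and 0.95 CPM) and 36 and 34 UMIs in adventitial cells (5.69 and 2.94 CPM). Its log2 fold change was 2.11 ± 0.48 (adjusted p = 0.00825), with adjusted p = 0.0691 in DESeq2 and 0.0968 without the block; it was too sparse to be tested after thinning. *Igf1r* stood at 75.2 and 153.0 CPM in alveolar cells and 71.7 and 124.3 CPM in adventitial cells, and the classes overlapped (log2 fold change -0.16 ± 0.22, adjusted p = 0.795).

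**Figure D1:**
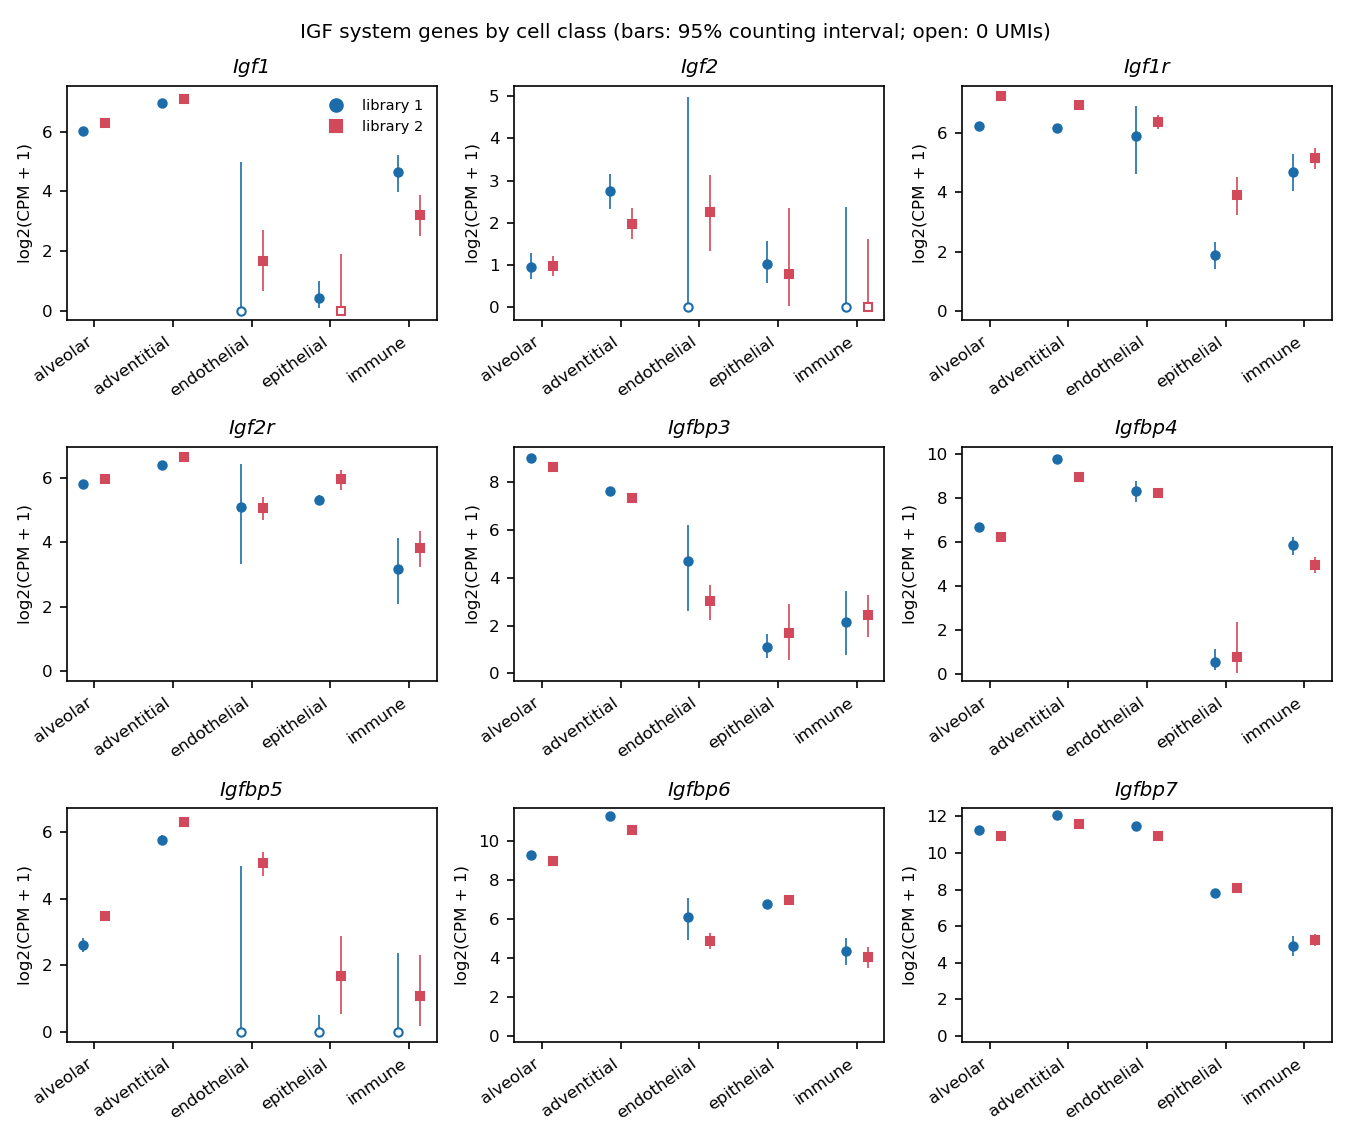
Level of each IGF system gene as log2(CPM + 1) in 5 cell classes, with circles for library 1, squares for library 2, bars for the 95% Poisson counting interval and open symbols for 0 UMIs. *Igfbp4*, *Igfbp5* and *Igfbp6* are higher in adventitial than in alveolar cells in both libraries, *Igfbp3* is lower, and the endothelial intervals of library 1 are wide because only 56 cells were in that class.

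Adventitial cells were also deeper, with a median of 6034 and 10655.5 UMIs a cell against 3958 and 6545 in alveolar cells. For the test after thinning to 2000 UMIs a cell, classes were assigned anew on the thinned counts. That gave 648 and 476 adventitial and 5399 and 6325 alveolar cells. The log2 fold change was then 3.14 for *Igfbp4*, 3.39 for *Igfbp5*, 2.07 for *Igfbp6* and -1.66 for *Igfbp3*, each larger in size than before. Depth and the cells in each class changed together, and their parts in this were not tested. For shares of cells with a UMI, cells kept the class assigned before thinning and were thinned to the same depth. This kept 5070 and 5504 alveolar and 1000 and 998 adventitial cells. The share was 65.2% and 49.1% for *Igfbp4* in adventitial cells of libraries 1 and 2, against 10.1% and 8.56% in alveolar cells and 0.108% (1 of 924 cells) in epithelial cells of library 1, whose median was 9340.5 UMIs before thinning. Unthinned, these shares were 85.4% and 83.2% in adventitial cells and 14.8% and 18.1% in alveolar cells. For *Igfbp3* the thinned shares were 22.5% and 21.6% in adventitial cells and 51.0% and 43.7% in alveolar cells, where the unthinned shares were 41.1%, 49.2%, 62.5% and 68.3%.

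Before thinning, stromal cells with 1 or 2 *Dcn* UMIs lay between the classes in both libraries for *Igf1*, *Igf2r*, *Igfbp3*, *Igfbp4*, *Igfbp5*, *Igfbp6* and *Igfbp7*. For *Igf2* and *Igf1r* they did not in library 1. In cells assigned after thinning to 2000 UMIs, *Igfbp4* stood at 105.1 and 90.3 CPM in cells with no *Dcn* UMI, at 358.5 and 316.3 CPM in cells with 1, and at 1348 and 925.8 CPM in cells with 9 or more. *Igfbp6* went from 607.7 and 520.9 CPM through 1165 and 883.2 CPM to 3820.0 and 2171 CPM. *Igfbp3* fell from 512.5 and 390.8 CPM through 337.3 and 252.7 CPM to 125.5 and 129.0 CPM. *Igf1r* showed no such order in library 1, at 74.6 CPM with no *Dcn* UMI and 89.1 CPM with 9 or more, while in library 2 these values were 146.2 and 96.8 CPM. *Igfbp5* was uneven in library 2, at 9.41 CPM with no *Dcn* UMI, 61.6 with 1, 30.1 with 2 and 80.7 with 9 or more. *Igf2r* in library 1 stood higher with 1 *Dcn* UMI (92.0 CPM) than with 9 or more (79.0 CPM). This grouping by *Dcn* was added with the levels of the classes already known and carries no test.

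**Figure D2:**
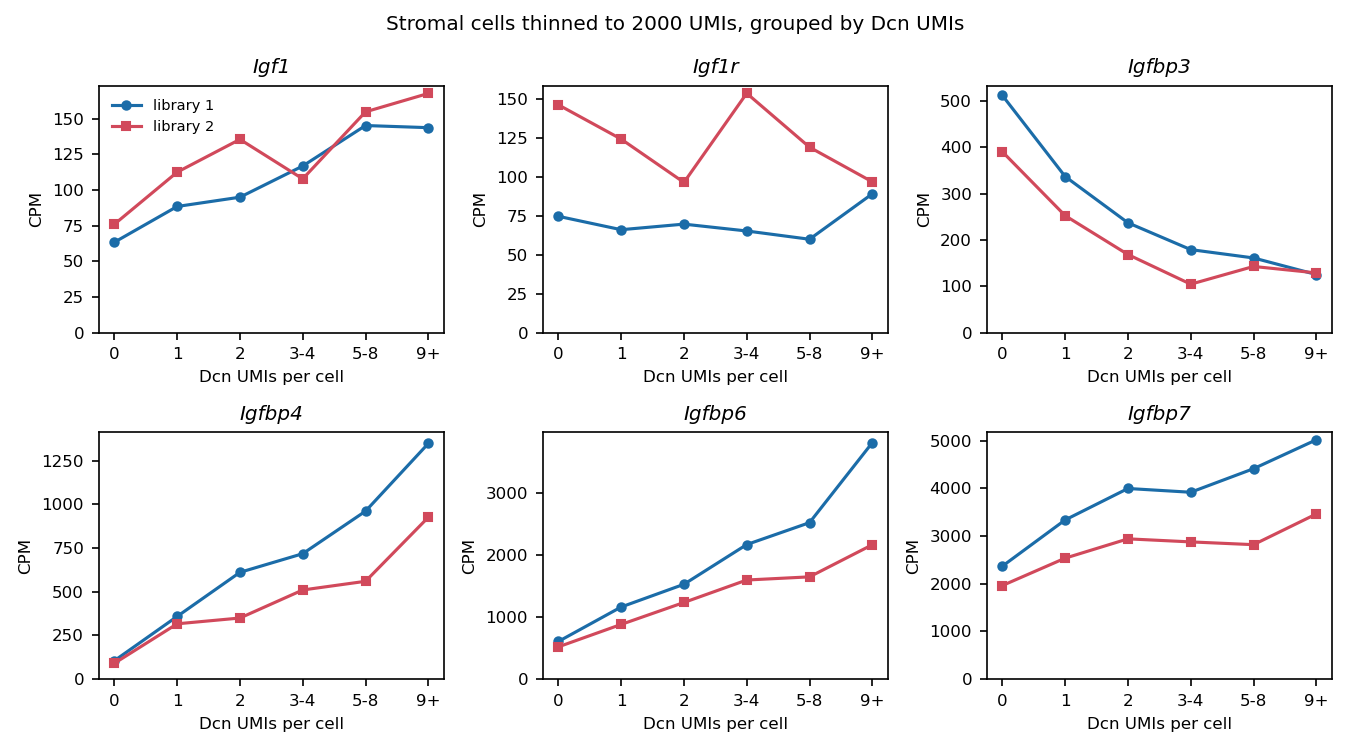
CPM of 6 IGF system genes in stromal cells thinned to 2000 UMIs, grouped by their *Dcn* UMIs (horizontal axis), with 1 line for each library. *Igfbp4*, *Igfbp6* and *Igfbp7* are lowest at 0 *Dcn* UMIs and highest at 9 or more in both libraries, and *Igfbp3* is highest at 0.

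Among adventitial cells, those with a UMI of *Pi16*, a marker of adventitial fibroblasts, were compared with those without. *Igfbp4* stood at 1603 and 1185 CPM in 140 and 36 *Pi16*-positive cells and at 641.3 and 394.2 CPM in 712 and 767 *Pi16*-zero cells (log2 fold change 1.41 ± 0.31, adjusted p = 0.00599). It was the only gene of the 8 tested that passed, where 1.91% of 9800 genes did, and it did not pass in DESeq2 (adjusted p = 0.51) or without the block (adjusted p = 0.872). *Igfbp6* stood at 3866 and 2519 CPM against 1923 and 1381 CPM (adjusted p = 0.154).

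Stromal cells with at least 2 UMIs of *Hhip* and *Aspn*, genes known from myofibroblasts, were set apart whatever their *Dcn* count. Compared with the remaining alveolar cells, 4 of the 8 genes tested were higher and 1 was lower, where 6.62% of all genes passed. *Igfbp4* stood at 1134 and 418.2 CPM in 239 and 504 such cells (log2 fold change 3.13 ± 0.33, adjusted p = 1.23e-09), and *Igf1*, *Igfbp5* and *Igfbp6* were higher by log2 fold changes of 1.05, 2.00 and 1.77 (adjusted p = 0.000145, 3.33e-06 and 5.34e-05; *Igf1* at 0.232 without the block). *Igfbp3* was lower, by a log2 fold change of -0.96 ± 0.20 (adjusted p = 0.00096; 0.124 after thinning and 0.459 without the block). All of these went the same way as between adventitial and alveolar cells. The *Hhip* and *Aspn* group could hold cells with 3 or more *Dcn* UMIs, while the alveolar cells held no *Dcn* UMI. The part of such cells in these differences was not tested. A group labelled mural was taken as stromal cells with at least 3 UMIs of *Myh11*, *Cnn1*, *Des*, *Cox4i2* and *Notch3*. These are genes of the pericytes and smooth muscle cells around vessels. The cells had also reached 3 UMIs of the stromal set, and only 0.806% of all genes passed between them and alveolar cells. The label therefore names the genes used, and whether these are pericytes or smooth muscle cells was not tested. Of the 8 genes 1 passed: *Igfbp5* stood at 9.65 and 45.4 CPM in 125 and 287 cells, against 4.89 and 8.47 CPM in alveolar cells (log2 fold change 2.18 ± 0.31, adjusted p = 1.53e-05). That call was lost in DESeq2 (adjusted p = 0.353), after thinning (adjusted p = 0.403) and without the block (adjusted p = 0.0914).

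Endothelial cells, which line the vessels, carried binding protein transcripts but few of the ligands. Compared with alveolar cells, 2 of the 9 genes were higher, 5 were lower and 2 did not pass, where 33.0% of all genes passed. *Igfbp4* stood at 317.9 and 299.8 CPM, above both alveolar values (log2 fold change 1.67 ± 0.25, adjusted p = 3.76e-05). *Igfbp7* stood at 2836 and 1930.0 CPM, overlapping the alveolar range (log2 fold change -0.19 ± 0.21, adjusted p = 0.568). *Igfbp5* had no UMI in the 56 cells of library 1, which allows up to 25.1 CPM, and 60 UMIs (32.5 CPM) in library 2. Its log2 fold change of 1.45 ± 0.41 (adjusted p = 0.0106) was lost in 4 of 8 alternatives and rests on library 2, since the limit of 25.1 CPM in library 1 lies above the alveolar level. Of those 60 UMIs, 52 came from 67 cells with at least 3 UMIs of *Vwf*, a marker of larger vessels (114.1 CPM), and 0 from 92 aerocytes. They lay in only 9 of the 360 endothelial cells of library 2, and the most in 1 cell was 30. The value of 114.1 CPM thus rests on few cells.

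*Igf1* had 0 and 4 UMIs in endothelial cells (0 and 2.16 CPM), so that alveolar cells held 35.7 times as much over both libraries (95% counting interval 13.9 to 131). When cells were thinned before they were assigned, its log2 fold change against alveolar cells was -2.63, a smaller difference than that interval spans. *Igf2* had 0 and 7 UMIs (0 and 3.79 CPM) and did not pass (adjusted p = 0.112). *Igfbp3* stood at 25.1 and 7.03 CPM (log2 fold change -5.78 ± 0.34, adjusted p = 2.76e-10) and *Igfbp6* at 66.9 and 28.1 CPM (log2 fold change -4.13 ± 0.31, adjusted p = 5.15e-09). In the same cells, 5 stromal check genes (*Col3a1*, *Col1a1*, *Tcf21*, *Npnt* and *Slc7a10*) stood at 1.91% to 5.47% of their alveolar level in library 1 and at 2.19% to 3.14% in library 2. *Igfbp3* stood at 4.88% and 1.77% of its alveolar level and *Igf1* at 0% and 2.77%, within or below those ranges, while *Igfbp6* stood at 11% and 5.56% and *Igf1r* at 77.9% and 53.8%.

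The receptors were present in endothelial cells at 58.6 and 82.2 CPM for *Igf1r* and 33.5 and 32.5 CPM for *Igf2r*. *Igf2r* was lower than in alveolar cells (log2 fold change -1.15 ± 0.26, adjusted p = 0.00172). For *Igf1r* the log2 fold change was -0.98 ± 0.29 (adjusted p = 0.0132), with adjusted p = 0.147 in DESeq2, 0.159 after thinning and 0.341 without the block. With that thinning the endothelial class of library 2 grew from 360 to 650 cells, and the log2 fold changes were -2.14 for *Igfbp3* and -2.95 for *Igfbp6*, both still past the test.

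Within the endothelium, *Igfbp7* separated the capillary types. Aerocytes, the large capillary cells of gas exchange, were taken as cells with at least 3 UMIs of *Car4* and *Ednrb*, and general capillary cells as those with none of these and at least 3 UMIs of *Plvap* and *Gpihbp1*, cells with at least 3 UMIs of *Vwf* being set aside first. *Igfbp7* stood at 9197 and 4594 CPM in 11 and 92 aerocytes and at 496.1 and 372.2 CPM in 28 and 104 general capillary cells. The groups did not overlap (log2 fold change 3.72 ± 0.41, adjusted p = 2.78e-08), and the gene passed in all 7 alternatives in which it could be fitted. *Igfbp6* was lower in aerocytes, with 0 and 6 UMIs (0 and 9.75 CPM) against 8 and 21 UMIs (147.0 and 47.7 CPM), at adjusted p = 0.0416; that call was lost in 3 of 7 alternatives. These were the genes that passed among 8 tested, where 1.66% of all genes passed. *Igfbp4* stood at 0 and 160.9 CPM in aerocytes and at 349.1 and 388.1 CPM in general capillary cells (adjusted p = 0.117). In the 11 aerocytes of library 1, 3 UMIs correspond to 97.5 CPM, so the 0 values of *Igfbp4* and *Igfbp6* there allow up to that level.

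**Figure D3:**
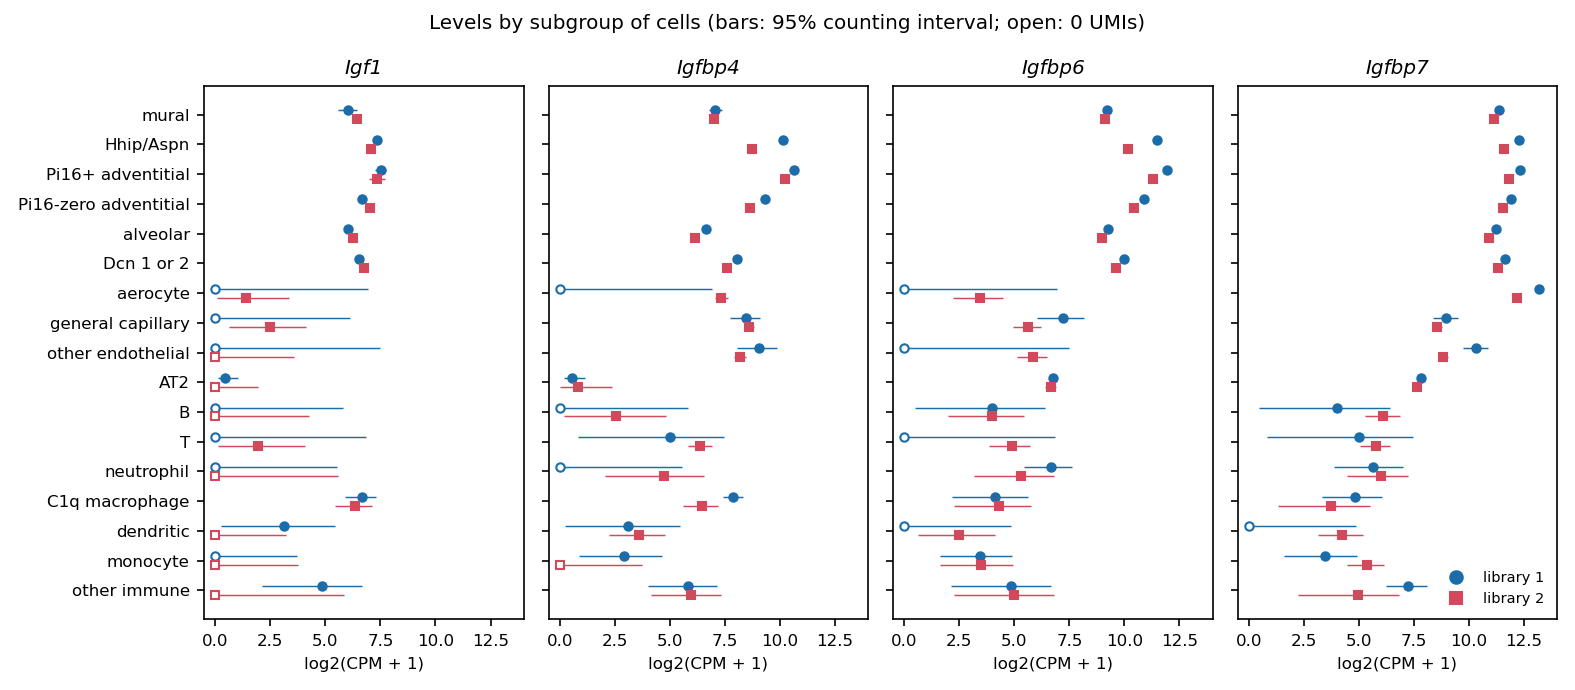
Level of *Igf1*, *Igfbp4*, *Igfbp6* and *Igfbp7* as log2(CPM + 1) in the 17 subgroups with at least 10 cells in each library, with circles for library 1, squares for library 2 and bars for the 95% Poisson counting interval. *Igfbp7* is highest in aerocytes, and among immune subgroups *Igf1* is highest in C1q macrophages in both libraries.

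Epithelial cells held fewer transcripts of most of these genes. None of the 9 genes was higher than in alveolar cells, 7 were lower and 2 did not pass, where 51.1% of all genes passed. *Igf1* had 3 and 0 UMIs in 930 and 101 cells, and alveolar cells held 242 times as much (95% counting interval 82.9 to 1180). *Igfbp4* had 4 and 1 UMIs, with alveolar cells 170 times higher (72.8 to 524). After thinning the log2 fold changes were -5.97 for *Igf1* and -5.05 for *Igfbp4*, both smaller differences than these intervals span. *Igf1r* stood at 2.66 and 13.9 CPM (log2 fold change -3.70 ± 0.31, adjusted p = 1.21e-08). *Igfbp3* stood at 1.16 and 2.20 CPM from 10 and 3 UMIs (log2 fold change -7.94 ± 0.34, adjusted p = 2.52e-12; -4.67 after thinning). *Igfbp5* had 0 and 3 UMIs, with alveolar cells 27.8 times higher (9.46 to 135); with assignment at 5 UMIs its log2 fold change was only -0.59 (adjusted p = 0.229). *Igf2* had 9 and 1 UMIs and did not pass (adjusted p = 0.638).

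*Igf2r* stood at 39.2 and 61.5 CPM in epithelial cells, overlapping the alveolar values (log2 fold change 0.27 ± 0.19, adjusted p = 0.261). The sign of that fold change depends on the scaling, since the CPM ratio is below 1 in both libraries; the TMM factors added 0.55 to epithelial log2 fold changes against the ratio of CPM. *Igfbp6* stood at 108.8 and 124.5 CPM (log2 fold change -1.71 ± 0.23, adjusted p = 6.83e-06) and *Igfbp7* at 224.7 and 268.8 CPM (log2 fold change -2.61 ± 0.23, adjusted p = 2.10e-08). They were at 17.9% and 24.6%, and at 9.29% and 13.6%, of their alveolar levels, while the 5 stromal check genes were at 0.173% to 2.45% in library 1 and 0% to 7.6% in library 2. In AT2 cells, the surfactant-producing cells that made up 925 and 95 of these cells, *Igfbp6* stood at 108.0 and 100.3 CPM. AT1 cells, the flat cells of the alveolar surface, were 0 in library 1 and 3 in library 2, where *Igfbp7* stood at 4819 CPM and *Igfbp6* at 1308 CPM, with no test.

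In immune cells none of the 9 genes was higher than in alveolar cells, 8 were lower and *Igf2* had no UMI, which allows 1.12 CPM over both libraries; 52.5% of all genes passed in this comparison. *Igfbp7* stood at 29.7 and 37.5 CPM (log2 fold change -5.71 ± 0.28, adjusted p = 9.85e-12) and *Igfbp6* at 19.4 and 15.4 CPM (log2 fold change -4.73 ± 0.29, adjusted p = 2.53e-10). They were at 1.23% and 1.89%, and at 3.18% and 3.05%, of their alveolar levels, where the stromal check genes were at 0.32% to 1.43% and 1.08% to 1.62%. After thinning the log2 fold changes were -2.90 for *Igfbp7* and -3.49 for *Igfbp6*. *Igf1* at 23.9 and 8.27 CPM (37.7% and 10.6% of its alveolar level) and *Igfbp4* at 57.0 and 30.3 CPM (56.2% and 40.5%) lay well above those ranges. *Igf1* was lower than in alveolar cells by a log2 fold change of -2.06 ± 0.34 (adjusted p = 5.55e-05). For *Igfbp4* the log2 fold change of -0.79 ± 0.27 (adjusted p = 0.0194) was lost in 4 of 8 alternatives, with adjusted p of 0.111 to 0.242. The receptor genes were lower too, *Igf1r* at 25.1 and 34.7 CPM (log2 fold change -1.67 ± 0.28, adjusted p = 7.35e-05) and *Igf2r* at 7.98 and 13.2 CPM (log2 fold change -2.16 ± 0.27, adjusted p = 2.03e-06). *Igfbp3* stood at 3.42 and 4.41 CPM from 3 and 8 UMIs (log2 fold change -6.48 ± 0.33; -4.04 after thinning). *Igfbp5* had 0 and 2 UMIs, with alveolar cells 11.2 times higher (95% counting interval 3.08 to 92.7; adjusted p = 0.00749, and 0.0711 without the block).

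The immune *Igf1* transcripts lay mostly in macrophages that express the complement genes *C1qa*, *C1qb* and *C1qc*. In 45 and 25 of these cells *Igf1* had 18 and 13 UMIs (99.8 and 79.8 CPM), out of 21 and 15 UMIs in all immune cells. In 79 and 55 monocytes, marked by *Ms4a6c*, *Ifitm6* and *Gngt2*, it had none, so C1q macrophages were at least 18.0-fold higher, taking 3 UMIs over both libraries as the limit. *Igfbp4* had 42 and 14 UMIs in C1q macrophages (232.9 and 86.0 CPM) and 2 and 0 in monocytes, a ratio of 48.9 (95% counting interval 12.9 to 414). Both genes passed the test (adjusted p = 1.31e-06 and 1.03e-05), as 2 of 8 tested where 7.53% of all genes passed; after thinning the log2 fold change of *Igf1* was 3.72, less than that limit, and its adjusted p was 0.0668. *Igf1r* was highest among immune subgroups in neutrophils, marked by *S100a8*, *S100a9* and *Retnlg*, at 111.4 and 229.5 CPM from 9 and 18 UMIs.

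**Figure D4:**
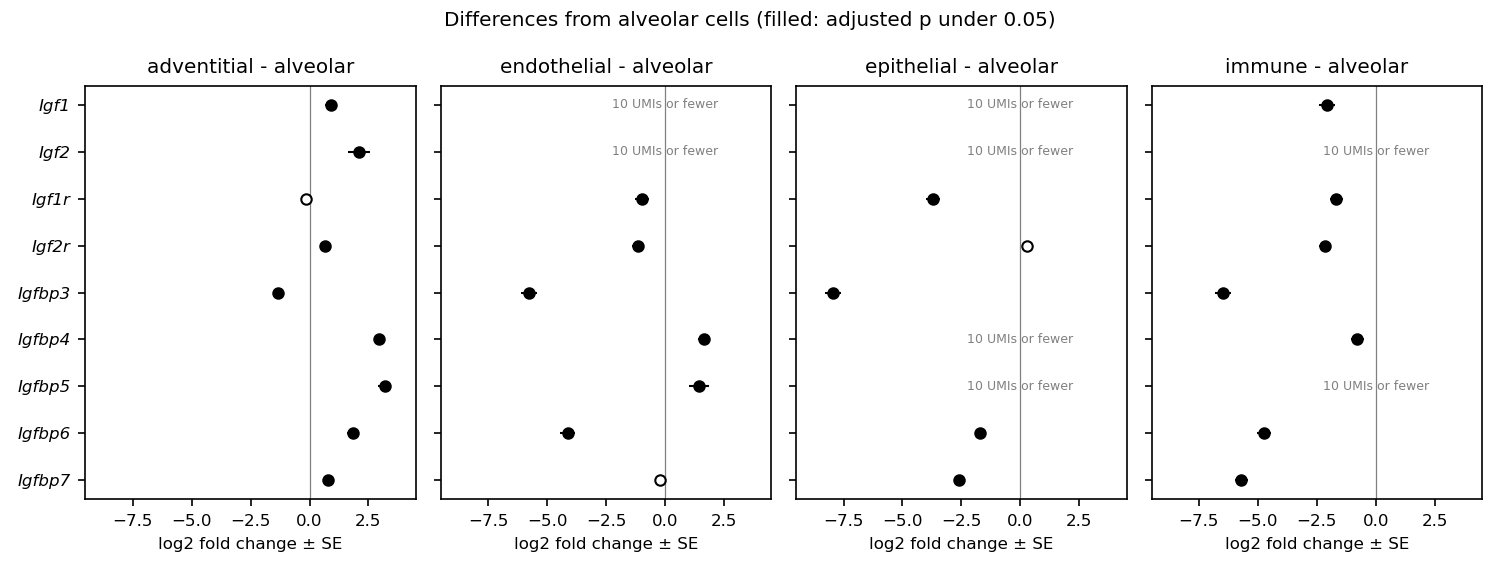
Log2 fold change against alveolar cells with its SE (bars, from edgeR, n = 2 libraries) for each gene and class; filled points passed at adjusted p under 0.05, and no point is drawn where the class held 10 UMIs or fewer over both libraries. *Igfbp4* lies to the right of 0 in adventitial and endothelial cells, and *Igfbp3* lies to the left in all 4 classes.

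Ordered by mean CPM, *Igfbp4* ran from adventitial (691.5 ± 283.1 SD, n = 2) through endothelial (308.8 ± 12.8), alveolar (88.1 ± 18.7) and immune (43.7 ± 18.9) to epithelial cells (0.597 ± 0.191), and every neighbouring pair passed the test, alveolar and immune cells in 4 of 8 alternatives. *Igfbp3* ran from alveolar through adventitial, endothelial and immune to epithelial cells, with neither endothelial and immune (adjusted p = 0.392) nor immune and epithelial cells (adjusted p = 0.0511) past the threshold; after thinning adventitial and endothelial cells did not pass either (adjusted p = 0.2996). *Igfbp6* ran from adventitial through alveolar, epithelial and endothelial to immune cells, of which the last pair did not pass (adjusted p = 0.221). *Igfbp7* was highest in adventitial cells, did not differ past the threshold between endothelial and alveolar cells, and was then lower in epithelial and lowest in immune cells, of which that last pair did not pass after thinning (adjusted p = 0.272). *Igf1* ran from adventitial through alveolar and immune to endothelial and epithelial cells, the last pair not passing (adjusted p = 0.245); after thinning immune and endothelial cells did not pass either (log2 fold change -0.26 for endothelial against immune cells, adjusted p = 0.804). For *Igf1r* neither alveolar and adventitial nor endothelial and immune cells (adjusted p = 0.128) passed, and epithelial cells were lowest; adventitial and endothelial cells passed in 5 of 8 alternatives. *Igf2r* ran from adventitial through alveolar, epithelial and endothelial to immune cells, where alveolar and epithelial cells did not pass and endothelial and immune cells passed in 4 of 8 alternatives. *Igfbp5* ran from adventitial through endothelial and alveolar to epithelial and immune cells, the last pair not passing (adjusted p = 0.866). Its adventitial and endothelial cells passed in 6 of 8 alternatives, and its endothelial and alveolar cells in 4 of 8. *Igf2* ran from adventitial through endothelial and alveolar to epithelial and immune cells, with no neighbouring pair past the threshold.

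Over all genes, 33.2%, 48.2% and 50.8% passed between adventitial cells and endothelial, epithelial and immune cells, where 8, 7 and 9 of the IGF system genes were higher in adventitial cells and none lower. Between endothelial cells and epithelial or immune cells 40.4% and 36.1% of all genes passed, and between epithelial and immune cells 48.0%. Endothelial cells were higher than epithelial cells in 5 of the 9 genes and lower in 2, *Igf2r* and *Igfbp6*, and they were higher than immune cells in 5 and lower in *Igf1*. Of these calls against immune cells, *Igf2* (7 against 0 UMIs) passed in 4 of 7 alternatives, *Igf2r* in 4 of 8 and *Igf1* in 7 of 8. Of the genes higher in adventitial than in immune cells, *Igf2* was at least 3.5-fold higher, again with 3 UMIs over both libraries as the limit.

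The libraries differed in *Igf1r*. In alveolar cells it stood 2.02-fold higher in library 2 than in library 1 and in adventitial cells 1.72-fold higher; of all genes with a mean level of 20 CPM or more, 3.47% and 4.67% were at least 2-fold higher. The other IGF system genes at that level lay between 0.742-fold and 1.23-fold in alveolar cells and between 0.552-fold (*Igfbp4*) and 1.46-fold (*Igfbp5*) in adventitial cells. Of the signalling genes after the receptor, *Foxo1* (3.72-fold), *Foxo3* (2.78-fold), *Irs2* (1.81-fold) and *Pik3r1* (1.68-fold) were higher in alveolar cells of library 2, while *Akt1* (0.841-fold), *Akt2* (1.04-fold) and *Grb10* (1.03-fold) were not. The libraries are of 1 condition and differ in depth and occasion, whose part in this was not tested.

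The pathway was then followed through 27 further genes of IGF and insulin signalling, of which 19 passed the low-count filter. Against alveolar cells, 4 were higher and 1 lower in adventitial cells, 4 and 11 in endothelial cells, 5 and 7 in epithelial cells and 2 and 14 in immune cells. In these comparisons 8.71%, 33.0%, 51.1% and 52.5% of all genes passed. Among the protease genes, *Pappa2*, which encodes a pappalysin that cuts IGFBP3 and IGFBP5, rose from 0.17 and 1.16 CPM to 4.27 and 28.1 CPM (log2 fold change 4.57, adjusted p = 1.37e-06). *Htra1* and *Htra3*, serine protease genes, rose by log2 fold changes of 1.56 and 1.65 (adjusted p = 4.24e-05 and 9.00e-06), and *Pappa* did not pass. *Stc1*, encoding a stanniocalcin that inhibits pappalysins, stood at 0.171 and 0.206 CPM in alveolar cells, at 4.11 and 3.54 CPM in adventitial cells (log2 fold change 4.26, adjusted p = 0.000164), and at 0 and 24.4 CPM in endothelial cells, where its call rests on library 2.

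*Pappa* had 49 and 463 UMIs in alveolar cells and none in endothelial, epithelial or immune cells, and *Stc2* had 79 and 236 UMIs there, 2 in endothelial cells and none in the other classes outside the stroma. *Irs2* had 0 and 5 UMIs in endothelial cells against 69.3 and 126.3 CPM in alveolar cells. *Irs1* had no UMI in immune cells and stood at 11.4 and 11.01 CPM in alveolar cells. *Grb14*, an adaptor gene that restrains insulin receptor signalling, stood at 10.2 and 9.28 CPM in alveolar, 245.5 and 156.0 CPM in epithelial (log2 fold change 4.91, adjusted p = 1.77e-11) and 75.3 and 63.8 CPM in endothelial cells (log2 fold change 2.65, adjusted p = 4.66e-07), with no UMI in immune cells. Within the endothelium it was higher in aerocytes, at 227.5 and 143.0 CPM against 18.4 and 24.96 CPM (log2 fold change 2.60, adjusted p = 0.000543). The related *Grb10* stood at 99.1 and 102.5 CPM in alveolar cells, with a log2 fold change of -2.70 in epithelial cells (adjusted p = 1.44e-08) and 2 and 6 UMIs in immune cells.

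*Igf2bp3*, an RNA-binding protein gene, stood at 14.1 and 22.8 CPM in alveolar cells and had 3 and 3 UMIs in epithelial and 3 and 4 in immune cells, where it passed as lower. *Igf2bp2* stood at 3.76 and 13.9 CPM in alveolar cells, passed as lower in endothelial cells with 1 and 1 UMIs (8.37 and 0.54 CPM, so that only library 2 was lower) and in immune cells with 0 and 5, and did not pass in epithelial cells. *Htra1* had 0 and 10 UMIs in endothelial and 1 and 1 in immune cells, and *Htra3* had 0 and 2 UMIs in endothelial, 8 and 0 in epithelial and 2 and 4 in immune cells; all of these passed as lower. *Insr*, the insulin receptor gene, stood at 23.3 and 38.5 CPM in alveolar cells and, of the 4 comparisons, passed the test only in immune cells (log2 fold change -1.42, adjusted p = 0.00135). *Igfbp1* had no UMI in any class and *H19*, the imprinted neighbour of *Igf2*, had 1 in all, in endothelial cells of library 2. *Igfbp2* was near 0 in library 1 and present in library 2, where alveolar cells held 3.02 CPM, endothelial cells 21.6, immune cells 16.6 and epithelial cells 94.5, so its 3 calls against alveolar cells rest on library 2. In the same order of classes in library 2 the epithelial marker *Cldn18* stood at 7.92, 58.4, 16.0 and 785.1 CPM, against 1.71, 0, 0 and 791.7 CPM in library 1, and 3 AT1 cells held 2065 CPM of *Igfbp2*; the part of these markers in the calls was not tested.

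The genes whose pattern was most like that of each IGF system gene were found by Pearson's correlation of log2(CPM + 1) over 34 sums (17 subgroups in 2 libraries) among the 6256 genes whose mean reached 20 CPM. These sums share libraries and classes, and the values are a description. For *Igf1* they were *Htra3* (r = 0.928), *Tmem119* (0.913) and *Col14a1* (0.910), for *Igfbp3* the matrix genes *Col5a2* (0.929), *Fbln1* (0.915) and *Prelp* (0.913), and for *Igfbp5* *Myl9* (0.935), *C4b* (0.923) and *Prrx1* (0.922). For *Igfbp7* they were *Phlda3* (0.936), *Hspb1* (0.934) and *Gpx7* (0.924), and for *Igfbp6* *Col1a2* (0.914), *Echdc2* (0.906) and *1810010H24Rik* (0.900). A high correlation over all subgroups did not always hold between the stromal classes. *Col5a2* and *Fbln1* were higher in adventitial than in alveolar cells (adjusted p = 0.0111 and 0.00149), where *Igfbp3* was lower, and *Prelp* did not pass. *1810010H24Rik* was lower (adjusted p = 0.0247), where *Igfbp6* and *Col1a2* were higher, and *Echdc2* did not pass. No nearest gene of the other IGF system genes passed in the opposite direction. The nearest genes were less alike for *Igfbp4* (*Hmcn1*, *Uaca* and *Nbl1*, 0.809 to 0.815), *Igf2* (*Fbln2*, *Lamc3* and *Tcaf1*, 0.830 to 0.856), *Igf1r* (*Impact*, *Gabarapl1* and *Setd7*, 0.817 to 0.869) and *Igf2r* (*Lamc1*, *Slco3a1* and *Mosmo*, 0.785 to 0.824).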

How the data were processed

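The authors sorted live single UV-positive lung cells by flow cytometry, made libraries with 10x Genomics Chromium 3′ v3.1 reagents and deposited raw UMI counts per gene and cell barcode; per the labels, Cell Ranger 5.0.1 and the build mm10 were used. The matrices were those Cell Ranger had filtered for barcodes that hold cells, with no further filter or normalization. The counts were whole numbers with different totals in the 2 libraries.

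Cells were filtered and assigned as described above. Cells in which several assignment sets (2060) or none (432) reached 3 UMIs were left out, which served in place of a doublet caller. Counts were summed per class or subgroup and library. Cells were not counted as replicates. The 10 class sums entered 1 fit and the subgroup sums another, with at least 10 cells in each library. Tests used edgeR 4.0.16 (TMM, filterByExpr, quasi-likelihood, two-sided) under R 4.3.3 with library as a block, since the classes of a library come from the same cell suspension. Alternatives were median-ratio size factors, DESeq2 1.42.0, no filter on low counts, no block, assignment at 5 UMIs, other sets at 0 UMIs, cells thinned to 2000 UMIs, at most 5% mitochondrial UMIs, and each library left out. The fit was tested on simulated data. Intervals are exact 95% intervals and cover counting error only. Promoters are from RefSeq (GRCm38.p6), matched by symbol for all 9 genes, and gene positions from GENCODE, matched by Ensembl ID.

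The genes, lists and tests were chosen with earlier results of these data known. The text names the 9 genes, the genes of the pathway list that passed against alveolar cells with a log2 fold change of at least 2 in size, *Igfbp1*, *Igfbp2*, *Insr* and *H19*, the 3 nearest genes of each IGF system gene, and marker genes. *Htra1* and *Htra3* in adventitial cells, the signalling genes in the comparison of libraries and *Grb14* in aerocytes were named after their values were seen. Shared transcripts of *Igf2* with the overlapping gene *Gm49394* of the annotation, which is not among the genes counted, could not be told apart.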

Additional observations from a re-analysis of the deposited data

Results flagged for a closer look

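Barcodes that were assigned to no class, and so entered no comparison, also held transcripts of the IGF system, which is why they are given here. In the 420 and 1640 barcodes in which 2 or more assignment sets reached 3 UMIs, the mean CPM over the libraries was 38.8 for *Igf1*, 1.81 for *Igf2*, 79.3 for *Igf1r*, 48.7 for *Igf2r*, 184.3 for *Igfbp3*, 141.7 for *Igfbp4*, 11.9 for *Igfbp5*, 305.8 for *Igfbp6* and 1359 for *Igfbp7*. These barcodes had a median of 10331 and 17378.5 UMIs. In the 317 and 115 barcodes in which no set reached 3 UMIs, the mean CPM was 39.9 for *Igf1*, 67.8 for *Igf1r*, 41.3 for *Igf2r*, 358.6 for *Igfbp3*, 91.3 for *Igfbp4*, 509.8 for *Igfbp6* and 1624 for *Igfbp7*. *Igfbp5* had no UMI in those of library 1 and stood at 307.1 CPM in those of library 2.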

How the results depend on the processing

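The number of genes called between adventitial and alveolar cells was 1161, against 617 in DESeq2 and 254 without the replicate block. Thinning to 2000 UMIs lowered the number from 6813 to 3957 between epithelial and alveolar cells and from 6991 to 4644 between immune and alveolar cells, with 10842 genes tested in place of 13326. Between endothelial and alveolar cells the number stayed within 1.5 times the 4401 reported. In the comparisons with alveolar cells, median-ratio size factors, no filter on low counts and the limit of 5% mitochondrial UMIs left all 36 results of the IGF system genes in direction and on their side of the threshold. Calls were lost in 1 result with assignment at 5 UMIs, 2 with the other sets at 0 UMIs, 4 of 32 that could be fitted after thinning, 5 in DESeq2 and 9 without the block; the cause was not tested. Leaving out a library leaves no spread to test. The value given is then the log2 ratio of CPM + 1 in the library that is left, without the TMM factors. For *Igfbp5* between endothelial and alveolar cells these values ran from -2.61 to 1.57, the one called result that changed sign. Without library 2 the value was -2.61, where library 1 had no *Igfbp5* UMI in 56 endothelial cells. With 0 UMIs that value is set by the added 1 and the alveolar level of 5.12 CPM. The limit of 25.1 CPM lies above that level, so library 1 cannot show a lower one. Among results that had not passed, the sign in at least 1 library also differed from that of the fit in 2 classes. These were *Igf2* (-0.96 to 1.29) and *Igfbp7* (-0.04 to 0.23) in endothelial cells and *Igf2* (-0.17 to 0.07) and *Igf2r* (-0.49 to -0.02) in epithelial cells. Against the ratio of CPM, the TMM factors added -0.28 to endothelial and 0.55 to epithelial log2 fold changes. Their part in these signs was not tested. Median-ratio size factors moved the median of all genes between immune and alveolar cells by 0.13 on the log2 scale. The 2 libraries are too few to know their spread well, and endothelial values of library 1 and epithelial values of library 2 rest on few cells.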
